A study of Homo sapiens with 3 samples.

Results

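Intron-only clusters were the regions of C-to-U editing whose label named an intron of 1 or more genes and no exon. They numbered 310, 353 and 193 in replicates 1, 2 and 3, or 856 of the 40843 clusters in all. They were split by relative C coverage, the number of times that the C bases of a cluster were read over the product of its C bases and its mean read depth. A ratio near 1 means that the C bases were read as often as the depth of the cluster, and a ratio near 0 that far fewer reads held them. Of the 856 clusters, 432 had a ratio under 0.5 and 424 a ratio of at least 0.5. These are called the low and the high class below. The sources used here do not say whether a read that is spliced across an intron adds to the mean depth there, so what a low ratio stands for was not tested.

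The samples were 3 biological replicates of human embryonic kidney cells, titled HEK293T and with HEK293XT, a lentiviral packaging variant of that line, as their source, given as genotype WT. In all of them a doxycycline-induced fusion of RBFOX2 to the cytidine deaminase APOBEC1 was expressed for 72 h, and the RNA sequenced is labelled polyA RNA. The library kit is given as either the mRNA or the total RNA version, so the selection of polyadenylated RNA is not settled by the labels. Transient transfection is the labelled treatment, while the culture protocol describes stable lines. There was no second group and no control without the fusion, so clusters were compared by class within each replicate, and editing without RBFOX2 was not measured in these data.

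RBFOX2 is a splicing regulator that binds GCAUG elements, many of them in the introns beside alternative exons. In STAMP the deaminase fused to such a protein leaves C-to-U edits around its binding sites, which are then read by RNA sequencing. Introns are spliced from the transcript and soon degraded, so polyadenylated RNA is poor in them, while total RNA holds more. Reads that map to an annotated intron can come from a retained intron, from unspliced RNA, from an exon the annotation lacks, or from another gene or a processed pseudogene that lies in the intron.

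The clusters of all labels numbered 14295, 15181 and 11367 in replicates 1, 2 and 3. Intron-only clusters made up 2.17%, 2.33% and 1.70% of them and held 1.62%, 1.74% and 2.04% of the edited bases. Labels that named both an intron and an exon made up 0.055% ± 0.030 (SD, n = 3) and were counted with the exon-annotated clusters. The median of the mean read depth was 22.1, 26.9 and 18.6 in intron-only clusters and 25.2, 24.6 and 21.1 in exon-annotated ones. Neither annotation was thus deeper in every replicate, but both mix low and high ratios. With exon-annotated clusters split at the same limit, the difference, intron-only minus exon-annotated, was -3.25, -6.39 and -19.7 in the low class. In the high class it was -11.3, -9.97 and -8.78. Intron-only clusters were therefore shallower in each replicate within both classes. Their reads per C base, given further below, were also fewer. Confidence intervals given below cover counting error only and treat the clusters of a replicate as independent, though several can lie in 1 gene. No molecular identifiers tell PCR copies of a molecule apart. Of 6 genes known to be expressed in the line, NEFL and NEFM held exon-annotated clusters in each replicate and VIM in replicate 3, while KRT8, KRT18 and PAX2 held none. None of 6 genes of other cells (ALB, HBB, PTPRC, COL1A1, GFAP and INS) held a cluster.

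Low ratios were common in intron-only clusters and rare in exon-annotated ones. The low class made up 47.4%, 57.5% and 42.5% of the intron-only clusters of replicates 1, 2 and 3, or 49.1% ± 7.66 (SD, n = 3). Wilson 95% intervals of these shares ran from 41.9% to 53.0%, from 52.3% to 62.6% and from 35.7% to 49.5%. Among exon-annotated clusters the same ratio was found in 3.30%, 3.81% and 3.23%. Among the clusters of all labels it was found in 4.26%, 5.06% and 3.90%. The difference between intron-only and exon-annotated clusters was 45.7 ± 7.35 percentage points and had the same sign in 3 of 3 replicates. A two-sided exact sign-flip permutation test over the 3 within-replicate differences gave p = 0.25, the smallest p that 3 replicates allow, so no such test here could pass 0.05. The median ratio was 0.531, 0.352 and 0.571 in intron-only clusters and 0.991, 0.997 and 1.00 in exon-annotated ones.

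**Figure D1:**
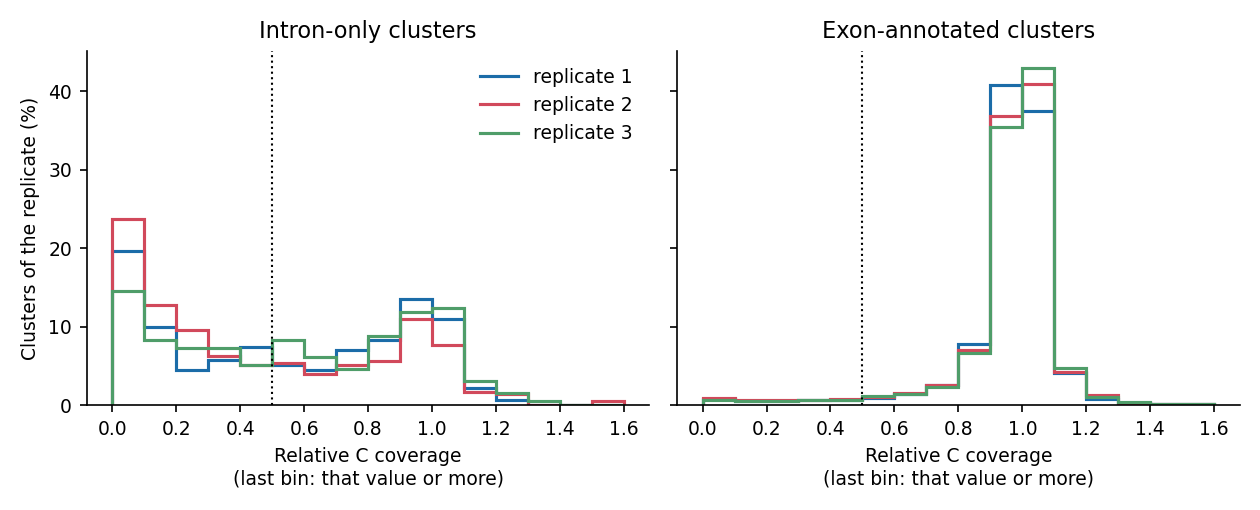
Relative C coverage (x axis, a ratio without unit) of intron-only clusters (left) and exon-annotated clusters (right), as the percent of each replicate's clusters in bins of 0.1. Each line is 1 replicate and the dotted line is the limit of 0.5. Intron-only clusters have a peak below 0.1 and a second one around 1, while exon-annotated clusters have only the peak around 1.

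The limit did not fall in a gap. The clusters just under it were in introns of PCIF1 (0.494, replicate 1), WASH3P (0.491, replicate 2) and THAP10 (0.481, replicate 3). Those just at or over it were in introns of DHX36 (0.501), INTS8 (0.5) and PAM (0.5). With the limit at 0.25 the low class made up 34.0% of the intron-only clusters, and with the limit at 0.75 it made up 62.6%.

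The low class had deeper intervals and fewer reads over its C bases than the high class in the median. Both values enter the ratio that defines the classes, though the rule sets neither alone, so they are a description. The median of the mean depth was 51.0, 49.2 and 35.7 in the low class of replicates 1, 2 and 3, against 13.2, 14 and 11.8 in the high class. The number of reads per C base was 6.0, 6.0 and 6.69 in the low class and 10.1, 11.5 and 9.40 in the high class. The extreme was a cluster of 150 bases in an intron of RPL30, which encodes a protein of the large ribosomal subunit, labelled with SNORA72 as well. It had a mean depth of 3710 and 12.3 reads per C base, a ratio of 0.0033.

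Few intron-only clusters were found again. To count as found in all 3 replicates, a cluster had to share 1 or more bases with a cluster on its strand in each of the other replicates. This held for 21 of 310, 22 of 353 and 22 of 193 intron-only clusters, or 6.77%, 6.23% and 11.4%, with a mean of 8.14% ± 2.84 (SD, n = 3). It held for 10.7%, 9.95% and 13.1% of exon-annotated clusters, and for 10.6%, 9.86% and 13.1% of clusters of all labels. The intron-only share was lower in 3 of 3 replicates, with differences of -3.88, -3.72 and -1.74 percentage points (exact permutation p = 0.25). Leaving out a replicate changed the size of this difference, but also the match, as a cluster then had to be found in both others. These changes cannot be told apart. The mean difference was -3.31, -7.78 and -8.97 points without replicate 1, 2 or 3. With at least 2 edited reads it was -0.941 points. The sign did not hold under a stricter match, where the overlap had to be at least 50% of both clusters. The difference was then 0.263, -0.505 and 2.60 percentage points in replicates 1, 2 and 3, or 0.785 ± 1.62, without a single direction. A further 11%, 13.6% and 18.1% were found in exactly 2 replicates, where clusters of all labels gave 20.7%, 20.5% and 22.5%. The remaining 82.3%, 80.2% and 70.5% were in 1 replicate only. A locus shared by the replicates enters all 3 values, so the 3 shares are not independent of each other.

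Within the intron-only clusters, the high class was found again more often than the low class. In replicate 1, 18 of 163 high and 3 of 147 low clusters were found in all 3 replicates, or 11% (Wilson 95% interval from 7.10% to 16.8%) and 2.04% (from 0.696% to 5.83%). In replicate 2 the counts were 17 of 150 and 5 of 203, or 11.3% and 2.46%. In replicate 3 they were 17 of 111 and 5 of 82, or 15.3% and 6.10%. The difference, low minus high, was -9.0, -8.87 and -9.22 percentage points, or -9.03 ± 0.175 (3 of 3 replicates, exact permutation p = 0.25). Exon-annotated clusters differed in the same direction, with -5.93 ± 0.331 points, and the difference between these differences was -3.10 ± 0.454 points, negative in 3 of 3 replicates (exact permutation p = 0.25). The low class also had fewer reads per C base, as given above, and their part in these differences was not tested. High intron-only clusters were found in all 3 replicates at 11%, 11.3% and 15.3% and high exon-annotated ones at 10.8%, 10.2% and 13.3%, where the difference ranged from 0.202 to 1.99 points.

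**Figure D2:**
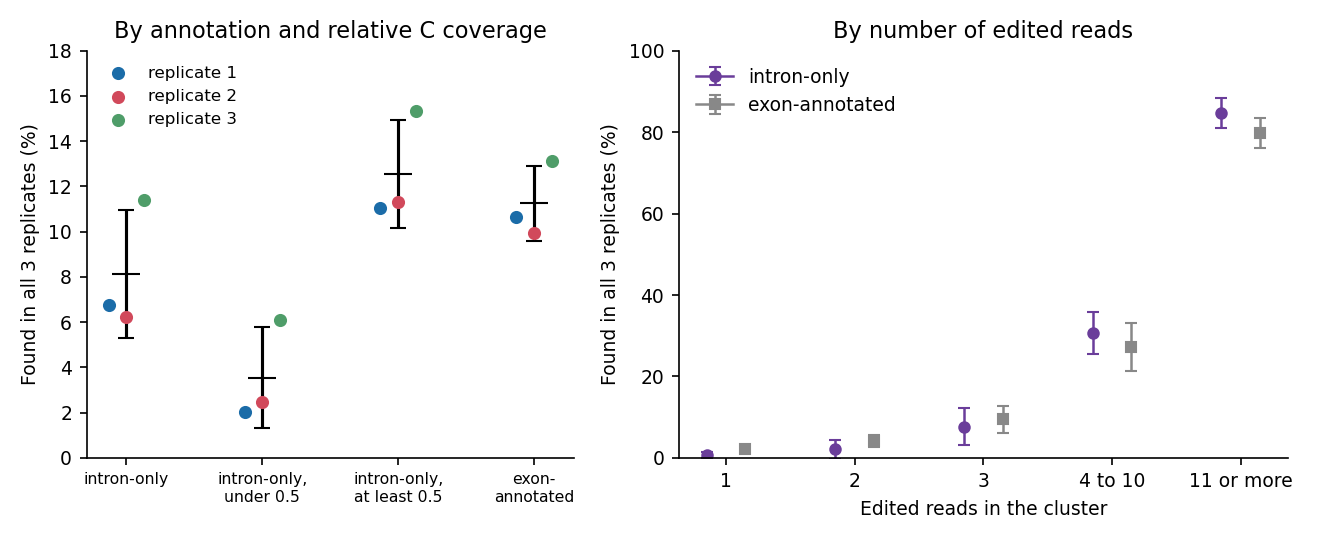
Percent of clusters found in all 3 replicates. Left, each point is 1 replicate and black bars are the mean and SD (n = 3), for intron-only clusters, their low class (relative C coverage under 0.5) and high class (at least 0.5), and exon-annotated clusters. Right, mean and SD over replicates by the number of edited reads in the cluster. The low class lies at 2.04% to 6.10%, below every other point on the left, and in both annotations the share climbs from under 3% at 1 edited read to about 80% at 11 or more.

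Recurrence moved with the number of edited reads. Of the 360 intron-only clusters with 1 edited read, 2 were found in all 3 replicates, or 0.707% ± 0.678 (SD, n = 3) per replicate. The share was 2.06% ± 2.26 at 2 edited reads, 7.68% ± 4.64 at 3, 30.7% ± 5.15 at 4 to 10 and 84.7% ± 3.72 at 11 or more. Exon-annotated clusters gave 2.28% ± 0.474, 4.11% ± 1.43, 9.43% ± 3.36 and 27.3% ± 5.95 at 1, 2, 3 and 4 to 10 edited reads. Intron-only clusters were thus lower in each replicate at 1, 2 and 3 edited reads and higher in each at 4 to 10. At 11 or more, 12, 11 and 9 intron-only clusters gave 83.3%, 81.8% and 88.9%, and exon-annotated clusters 80.4%, 75.9% and 83.3% (79.9% ± 3.71), lower in each replicate by a difference that was not tested. Clusters with 1 edited read made up 41.9%, 44.2% and 38.3% of the intron-only clusters but 27.7%, 30.7% and 32.9% of the exon-annotated ones. Among clusters with at most 3 edited reads, the difference between the low and the high class was 0.720 ± 1.33 percentage points, with the low class higher on average. With 4 to 10 edited reads, 2 of 26 low and 22 of 54 high clusters were found in all 3 replicates, and with 11 or more it was 3 of 3 low and 24 of 29 high ones.

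Labels with several names carried most of the recurrence. The label of a cluster lists every gene whose intron it was assigned to, and such a list can hold small genes and pseudogenes that lie inside a larger gene, numbered as introns too. A name in a label therefore does not place the cluster inside that gene. Of the intron-only clusters, 49.7%, 42.8% and 49.2% had several names, against 5.24%, 5.44% and 5.57% of the exon-annotated ones. Among those found in all 3 replicates this rose to 90.5%, 90.9% and 86.4%, whereas it was 48.6%, 40.6% and 47.1% among those found in 1. When only labels with 1 name were kept, 1.78% ± 1.12 of intron-only clusters were found in all 3 replicates. The low class was still lower there, with a difference of -3.01 ± 0.401 percentage points. This rests on few places: only 3 with 1 name held an intron-only cluster in all 3 replicates. They were in AC096574.4 and TCP11L1, both high, and in SFPQ, which was low. The same places enter the value of each replicate, so the small SD is not a spread over independent ones.

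Joined over replicates, the intron-only clusters formed 754 loci, of which 675 lay in 1 replicate, 58 in 2 and 21 in all 3. Of the 21 loci, 15 were in the high class in each replicate, 4 in the low class in each, and 2 changed side. The 21, 22 and 22 intron-only clusters found in all 3 replicates, by a match to clusters of any label, had medians of 9, 8 and 7.5 edited reads in replicates 1, 2 and 3, against 2 in each replicate for clusters found once. Start and end were the same in all replicates for 7 of the 21. The edit fraction, edited bases over covered C bases, differed by less than 2-fold between replicates in 13 of them and at most by 2.98-fold. Across the loci that any 2 replicates share, Spearman's rho of the edit fraction was 0.904 for replicates 1 and 2 (45 loci), 0.828 for 1 and 3 (31 loci) and 0.884 for 2 and 3 (45 loci). This is a description across loci, which span a wide range of depth. The same loci lay on the same side of the ratio limit in 43 of 45, 29 of 31 and 43 of 45 cases.

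**Figure D3:**
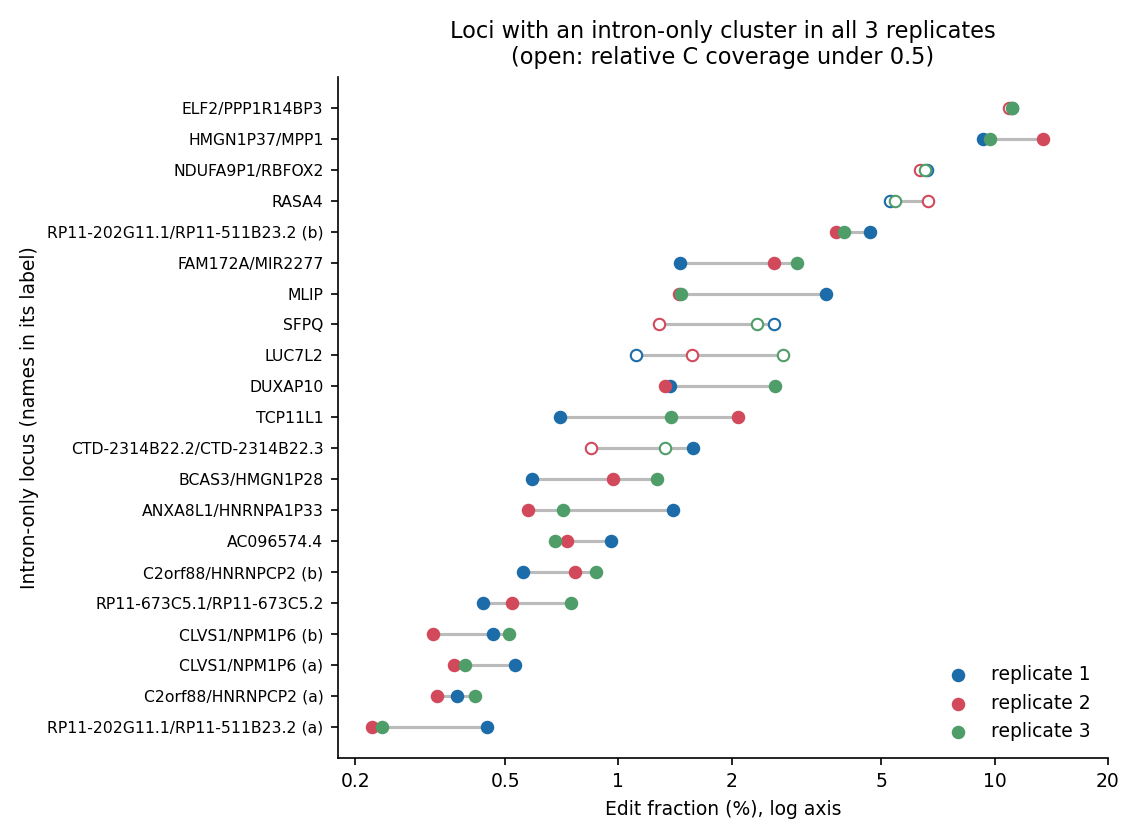
Edit fraction in percent (x axis, logarithmic) of the 21 loci with an intron-only cluster in all 3 replicates, ordered by their mean and named by up to 2 names of their label. Each point is 1 replicate, open points have a relative C coverage under 0.5, and grey lines span the replicates; (a) and (b) mark separate loci of the same label. Mean values run from 0.301% to 11.1%, and the span within a locus is small beside that range.

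The highest edit fraction of the 21 was at a locus of 45 bases on the minus strand of chromosome 4 from 140035838 to 140035882 (hg19), labelled with introns of ELF2, an ETS transcription factor, and of the pseudogene PPP1R14BP3. In replicate 1, 14 of 126 covered C bases were edited, in replicate 2 it was 7 of 64 and in replicate 3 it was 8 of 72. These are 11.1%, 10.9% and 11.1%. The cluster has 9 C bases, so the edits equal 1.00, 0.984 and 1.00 times the mean number of reads per C base (14, 7.11 and 8). Of all reads of the cluster, 14 of 25, 7 of 21 and 8 of 14 were edited. These totals exceed the reads per C base, with ratios of 0.56, 0.349 and 0.571, so they do not give the share edited among reads that held a given C base. Which of the 9 C bases were edited was not examined. In each replicate the edited bases and the edited reads were the same number, 14, 7 and 8, which is 1 edit per edited read. The edit fraction thus differed by 1.02-fold at most while depth ranged from 14 to 25.

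A locus on chromosome X from 154045248 to 154045367, labelled MPP1, a membrane-associated guanylate kinase, and HMGN1P37, came next. It had an edit fraction of 9.30%, 13.5% and 9.76% in replicates 1, 2 and 3. Its depth was only 11.3, 8.61 and 6.47, and 8, 8 and 4 of its reads were edited. Unlike the ELF2 locus it held several edits per edited read in replicate 2, where 21 edited bases came from 8 edited reads.

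The host gene of the fusion's own protein, RBFOX2, held 1 locus in all 3 replicates. On the minus strand of chromosome 22 from 36234512 to 36234646, in an interval also labelled NDUFA9P1, it had an edit fraction of 6.60%, 6.32% and 6.52%. It was in the low class at a mean depth of 1177, 1605 and 802. A second cluster of the same interval was found in replicates 1 and 2 only, with 0.350% and 0.536%. The expressed fusion carries RBFOX2 sequence itself, and reads of the fusion and of the endogenous gene were not told apart here.

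Several of the 21 labels paired a gene with a pseudogene of an abundant messenger RNA. Pseudogene names listed in RefSeq were present at 11 loci, among them 3 with copies of NPM1, whose product is the nucleolar protein nucleophosmin, 2 with HNRNPCP2 and 1 with HNRNPA1P33, copies of genes for pre-mRNA binding proteins. Such a name was held by 52.4%, 54.5% and 54.5% of the intron-only clusters found in all 3 replicates, and by 20.6%, 19.8% and 20.2% of all intron-only clusters. It was not counted for exon-annotated clusters. Labels with several names, at 18 of the 21 loci, have more chances to hold one, and their part was not tested. The 2 loci labelled CLVS1 and NPM1P6 on chromosome 8 had mean edit fractions of 0.430% and 0.432%, at depths from 399.5 to 1657. The locus on chromosome 5 from 93018231 to 93018335, labelled FAM172A, NPM1P27, MIR2277 and other names, had 1.46%, 2.60% and 2.98%, where replicate 1 was lowest. The 2 loci of C2orf88 and HNRNPCP2 had 0.373% and 0.733% on average, all of their clusters in the high class. Such copies share most of their sequence with the parent gene, so reads can be split or misplaced between them and their levels are uncertain. All but the RBFOX2 locus and 1 replicate of the ELF2 locus were in the high class among these 11.

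The deepest locus was on the minus strand of chromosome 12 from 93477131 to 93477175, labelled only with clone-based names (AC138123.2, RP11-202G11.1 and RP11-511B23.2). It had a depth of 6776, 7221 and 6403 and an edit fraction of 0.448%, 0.221% and 0.235%. A neighbour from 93477251 to 93477340 in the same interval had a depth of 116, 136 and 88.8 and an edit fraction of 4.66%, 3.79% and 3.97%. The shallower of these neighbours was thus the more edited one in each replicate.

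Among the 4 low loci found in all 3 replicates, those besides RBFOX2 were in introns of SFPQ, LUC7L2 and a family of copies around RASA4. SFPQ encodes a splicing factor of nuclear paraspeckles, and its locus on chromosome 1 from 35646352 to 35646471 had an edit fraction of 2.60%, 1.28% and 2.34%. It rested on 1, 2 and 2 edited reads, and the clusters of replicates 1 and 2 did not touch each other: both overlapped the longer cluster of replicate 3. LUC7L2, a protein of the U1 small nuclear ribonucleoprotein, had a locus on chromosome 7 from 139104336 to 139104380 with 1.11%, 1.57% and 2.74%, on 1, 3 and 1 edited reads. The RASA4 locus on chromosome 7 from 102184782 to 102184826 lies in an interval labelled with POLR2J2, POLR2J3, RASA4B and further copies. Its edit fraction was 5.26%, 6.67% and 5.45%.

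The loci of 1 replicate with most edited reads were LINC00486, MPV17L, KHSRP, HSPA14 and FAM35BP. The LINC00486 cluster of replicate 1 (chromosome 2 from 33091936 to 33091980) was listed with 677 edited reads but 15 edited bases, at a depth of 806. A count of edited bases under that of edited reads occurred in 1 other intron-only cluster, labelled NBPF10 and NOTCH2NL in replicate 3, with 2 bases and 3 reads. Over all intron-only clusters there were 0.934, 1.58 and 1.58 edited bases per edited read, and without the LINC00486 cluster the value of replicate 1 was 1.5. In an interval of MPV17L and C16orf45, 10 of 11 reads of replicate 1 were edited, with 10 of 40 covered C bases, or 25%, on 4 C bases. KHSRP, a splicing and decay factor, had 9 edited bases in 7 reads at a depth of 209 in replicate 2. Replicates 2 and 3, or 1 and 3, held no overlapping cluster at these loci.

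Intervals recurred more often than bases did. The clusters lay in 564 distinct annotated intervals, of which 446 held clusters of 1 replicate, 76 of 2 and 42 of all 3. Of the 42 intervals, 18 contained a locus found in all 3. Clusters in the 42 intervals made up 21.0%, 19.8% and 34.7% of the intron-only clusters of replicates 1, 2 and 3, against the 6.77%, 6.23% and 11.4% whose bases recurred. An interval is a wider target than a cluster, and this share was not counted for exon-annotated clusters. It is therefore not shown to be particular to introns. There were 138 intervals with 2 or more clusters. In 52 of these every cluster was low, in 73 none was, and 13 held both classes. The 20 intervals with 5 or more clusters together had 136 clusters, and 12 of the 20 contained no cluster found in all 3 replicates.

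The most clusters lay in 1 interval labelled C7orf55, C7orf55-LUC7L2 and LUC7L2, with 4, 5 and 3 clusters in replicates 1, 2 and 3. They formed 10 loci over 3975 bases, and all 12 were low, with ratios from 0.0545 to 0.245. Their edit fraction ranged from 1.11% to 8.33% with a median of 2.60%, and 9 of the 12 rested on 1 edited read. AKIRIN2, which encodes a nuclear protein needed for the import of proteasomes, had 2, 6 and 3 clusters, of which 9 of 11 were low and none was found in all 3. PPA2, the mitochondrial inorganic pyrophosphatase, had 4, 5 and 1 clusters in 1 interval, all low, with a median edit fraction of 4.46%. In PPA2 4 clusters were found in 2 replicates and 6 in 1.

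Clusters of the high class shared intervals too. The long noncoding RNA C17orf76-AS1, a host of small nucleolar RNAs, had 3, 3 and 3 clusters in 1 interval of 765 bases, none of them low, with ratios from 0.753 to 1.03. Of its 9 clusters 6 were found in 2 replicates and none in 3. HSPA14, a chaperone of the Hsp70 family, had 3, 1 and 5 clusters with ratios from 0.320 to 0.569, on both sides of the limit. SARS, the cytosolic seryl-tRNA synthetase, had 1, 3 and 2 clusters, by contrast all low at ratios from 0.0361 to 0.0818. Their depth ran from 100.2 to 147, and each of the 6 held 1 edited read. PCNA, the sliding clamp of DNA replication, was uneven: its introns held 0, 6 and 1 clusters, all low at ratios from 0.00966 to 0.0430. The last 4 genes were chosen after their values were seen.

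**Figure D4:**
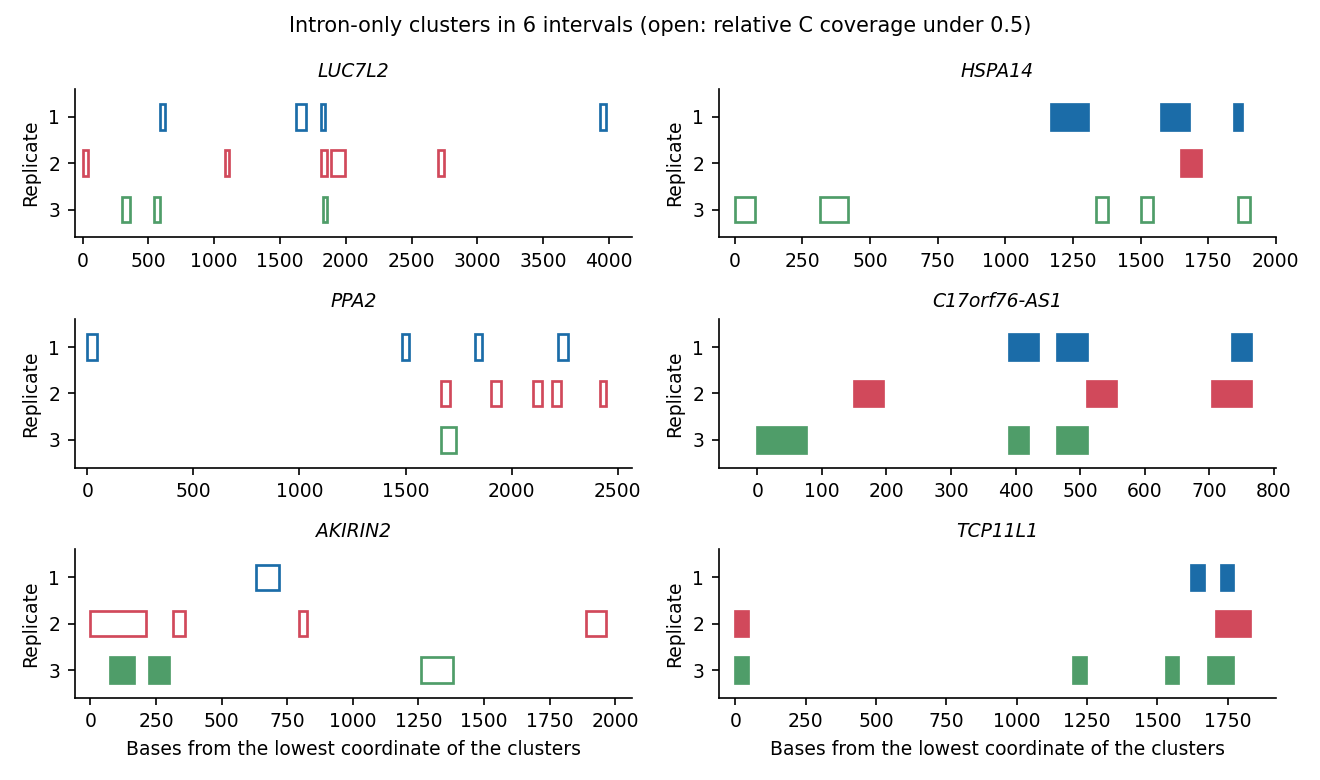
Intron-only clusters in the 6 intervals that hold most of them, labelled by gene. The x axis is the distance in bases from the lowest coordinate of the interval's clusters and each row is 1 replicate; boxes are clusters drawn to scale along the axis, open where relative C coverage is under 0.5. In LUC7L2 and PPA2 every box is open and boxes of different replicates seldom share bases, while in C17orf76-AS1 and TCP11L1 every box is filled.

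The labels of the 856 clusters held 980 names, which is 9.89% of the 9904 names that had a cluster of any kind. Of these 980, 516 (52.7%) also had an exon-annotated cluster. Names were looked up in RefSeq for their gene type. Only 756 of the 980 names matched (77.1%), too few for shares over names, but 811 of the 856 clusters (94.7%) had a matched name. A protein-coding name was present in 95.9%, 96.1% and 96.3% of the low clusters of replicates 1, 2 and 3 and in 76.7%, 76.7% and 77.5% of the high ones. The difference of 19.2 ± 0.271 percentage points had the same sign in 3 of 3 replicates (exact permutation p = 0.25). A pseudogene name was present in 12.2%, 9.36% and 3.66% of the low and in 28.2%, 34.0% and 32.4% of the high clusters. The difference, low minus high, was -16.0, -24.6 and -28.8 points (exact permutation p = 0.25). Names of small RNAs differed less, at 13.7% ± 1.39 of low and 15.1% ± 2.16 of high clusters. A gene that also held an exon-annotated cluster was named by 87.8%, 89.7% and 80.5% of the low and by 66.9%, 73.3% and 71.2% of the high clusters, a difference of 15.5 ± 5.83 points in 3 of 3 replicates (exact permutation p = 0.25). Labels with several names, which have more chances to hold any type, were less frequent in the low class (34.3% ± 3.80) than in the high class (60.1% ± 0.641), and their part in these differences was not tested.

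Genes of the splicing machinery were a modest part of the hosts. Of 31 hnRNP and other splicing regulators with any cluster, 4 had an intron-only one (12.9%), beside the 9.89% of all names. They were HNRNPA1, HNRNPH1, HNRNPU and TARDBP, with 14 clusters of which 12 were low. TARDBP, whose protein TDP-43 binds and limits its own transcript, had 2, 2 and 1 clusters in 1 interval. All were low at a depth from 66.0 to 100.5, and their edit fraction ranged from 1.6% to 13.2%. HNRNPH1, a regulator that binds G-rich elements, had 1 cluster in each replicate at 4.76%, 2.04% and 5.00%, also low, each on 1 edited read. The HNRNPA1 clusters lay in an interval labelled COPZ1 and MIR148B as well, so their host is uncertain, and the HNRNPU clusters carried the name of its antisense gene too.

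Of 22 SR and SR-like factors and their kinases, 4 had an intron-only cluster (18.2%, again beside the 9.89% of all names): SRSF1, SRSF5, SRSF11 and SON. SRSF1, a factor that promotes exon inclusion, had 1 cluster in each replicate at 3.00%, 3.92% and 1.6%, none low, at 3 separate places of 1 interval. SRSF5, SRSF11 and SON each had 1 cluster in replicate 2 only, all low. Of 15 members of the RBFOX family and genes with well-known RBFOX-regulated exons that had any cluster, only RBFOX2 had an intron-only one (6.67%). Of 31 snoRNA host genes 8 did (25.8%), among them SNHG7, SNHG8, RPL5, RPS12, NOP56, GNB2L1 and CCT6A. Together the 8 had 3, 3 and 3 clusters in replicates 1, 2 and 3, and all 9 were low. None of the 8 genes had one in all 3 replicates. C17orf76-AS1, described above, is an older name of SNHG29, a further member of this list, and differed from the 8, with 9 clusters over the 3 replicates, none low. With older names matched through RefSeq, a step chosen after these values were seen, 9 of 32 snoRNA host genes had an intron-only cluster (28.1%), and 9 of their 18 clusters were low. Of 5 nuclear long noncoding RNAs, JPX, a transcript of the X inactivation centre, had 2 clusters in replicate 1 and TUG1 had 1 in replicate 2, none low (2 of 6, or 33.3%, with older names matched). These lists are described by their counts beside the 9.89% of all names, and no list was tested against it.

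Intron-only clusters had the window-shaped lengths of the method. Every replicate had a median of 45 bases, as in exon-annotated clusters. The mean length was 49.1, 47.4 and 52.7 bases (49.7 ± 2.71), and 53.6, 53.1 and 52.7 bases in exon-annotated clusters. The difference, intron-only minus exon-annotated, was -4.50, -5.73 and 0.022 bases, so its sign did not hold in every replicate. The commonest lengths were 45 bases (47.7% ± 6.50) and 30 bases (22.6% ± 1.55).

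The 2 classes did not differ in length in a single direction. The mean length of the low class was 45.9, 46.4 and 53.1 bases and that of the high class 52.1, 48.7 and 52.4 bases. The difference, low minus high, was -6.26, -2.33 and 0.701 bases (-2.63 ± 3.49, exact permutation p = 0.5), and the median was 45 bases in both. Clusters shorter than the window of 30 bases, of which there were 44, were 8.69% ± 3.42 of the low and 1.77% ± 1.06 of the high class. Clusters of 90 bases or more numbered 88. The longest measured 274 bases (replicate 3), in an interval of STEAP1B with the pseudogene EEF1A1P6, at a depth of 1303 and an edit fraction of 0.547%. It overlapped clusters of both other replicates, where in replicate 2 an intron-only cluster of 45 bases covered part of it. The next were 210 bases in AKIRIN2 (replicate 2, 13 edited bases in 6 reads) and 165 bases in RP11-673C5.1 (replicate 1), where the clusters of replicates 2 and 3 measured 90 and 105 bases.

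**Figure D5:**
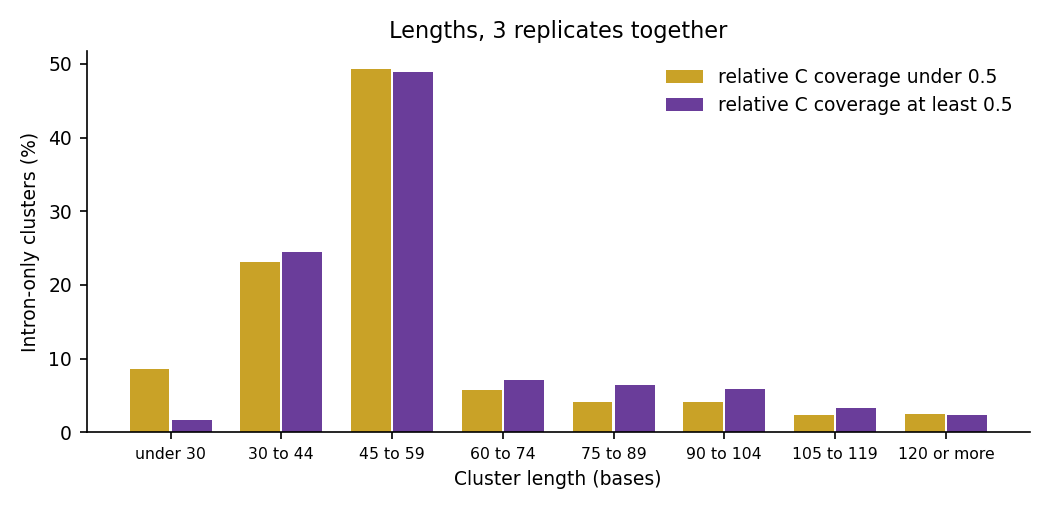
Percent of the 432 low (relative C coverage under 0.5) and 424 high (at least 0.5) intron-only clusters in each class of length in bases, 3 replicates together. Both classes peak at 45 to 59 bases, and clusters under 30 bases are mostly low ones.

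The edit fraction was higher in intron-only than in exon-annotated clusters. Its median was 3.76%, 3.97% and 3.52% in replicates 1, 2 and 3, against 1.61%, 1.63% and 1.79%. The difference was 2.07 ± 0.314 percentage points (3 of 3 replicates, exact permutation p = 0.25). Fewer reads over the C bases went with it: the median number of reads per C base was 7.54, 7.11 and 8.0 in intron-only and 23.4, 22.8 and 19.8 in exon-annotated clusters. Only called clusters are compared here, and windows were called against separate exon and intron rates. The paper also used separate rates at low read depth, so the edit fraction needed for a call could differ between the annotations. The parts of the read number and of the calling in the difference were not tested. A single edited base made up the edits of 18.4%, 18.7% and 14.5% of intron-only and 4.01%, 4.96% and 5.10% of exon-annotated clusters. Within the intron-only clusters the median was 4.55%, 4.76% and 3.76% in the low and 2.86%, 2.59% and 3.46% in the high class. Covered C bases enter both the edit fraction and the ratio that defines the classes, so this is given without a test. Clusters found in all 3 replicates had the lowest median edit fraction, at 1.11%, 1.05% and 1.35%, and those found in 1 replicate the highest, at 4.17%, 4.35% and 4.35%. The former had 91.5, 96.8 and 61.6 reads per C base and the latter 6.75, 6.51 and 6.54.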

How the data were processed

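The scored clusters that the authors deposited were analysed, 1 table for each of 3 biological replicates of 1 condition, not pooled. The authors called C-to-U positions with SAILOR, which drops common SNPs, and grouped them with FLARE, in which windows of 30 bases were tested against separate exon and intron rates at an adjusted p-value of 0.1 and merged within 15 bases. The submitters' processing notes name STAR and hg19. The counts that the authors deposited (C bases, covered and edited C bases, all reads and edited reads) are unscaled whole numbers. The deposited edit fraction is edited over covered C bases, the deposited mean depth is a coverage signal, and the deposited score is a cumulative probability. Library depth is not given by these tables, and windows that failed the threshold were not analysed here. Cluster starts were read as counted from 0 and printed plus 1.

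Python 3.11.15, NumPy 2.4.6, pandas 2.3.3 and SciPy 1.17.1 gave counts, shares with Wilson 95% intervals, mean and SD over 3 replicates, and two-sided exact sign-flip permutation tests of within-replicate differences. No p-value was adjusted, since none can pass 0.05. The overlap search matched a brute-force search for 100% of 500 simulated clusters. Genes named are the loci found in all 3 replicates, the 5 hosts with most clusters, the 5 loci of 1 replicate with most edited reads, the 3 longest clusters, those beside the limit of 0.5, and members of the gene lists, of which 1 is not reported here. The members and lists were chosen with earlier results of these data known. Gene types came from RefSeq (GRCh38.p14) by symbol, with no coordinates. Cluster sequences were not used here. Alternatives were minimum scores of 0.95 and 0.99, at least 2 edited reads, a depth of at least 10, overlap and annotation rules, limits of 0.25 and 0.75, medians for means, and each replicate left out.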

Additional observations from a re-analysis of the deposited data

How the results depend on the processing

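The series has 1 group, so no groups could be compared, and classes were compared as pairs within each replicate. Filters changed the level of several values. Keeping scores of at least 0.99 or at least 2 edited reads left 182 or 165 intron-only clusters per replicate, with mean lengths of 57.3 and 54.6 bases. Without these filters the mean length was 49.7 bases and the median 45 bases. At least 2 edited reads gave 12.9% found in all 3 replicates and a median edit fraction of 2.84%, a mean depth of at least 10 gave 3.32%, and means for medians gave 4.58%. The low class was 59.4% of the clusters at a depth of at least 10, and 34.0% or 62.6% with the limit at 0.25 or 0.75. With 1 replicate left out, found in all means both remaining replicates, and the share ranged from 13.5% to 18.6%. The lower recurrence of intron-only than exon-annotated clusters did not hold where 50% of both clusters had to overlap. The mean difference was then 0.785 percentage points, with mixed signs (0.263, -0.505 and 2.60). With at least 2 edited reads it was 0.191 points higher in replicate 3. The low class was below the high class in recurrence under each of 11 other settings, by 5.66 to 15.7 points. The difference in length was 0 bases between medians. Chosen after seeing the data: matching by interval gave 25.2% found in all 3 replicates and labels with 1 name 1.78%, and among clusters with at most 3 edited reads the low class was 0.720 points higher. The causes were not tested, and differences tested over 3 replicates cannot pass 0.05 under any setting. Edit fractions of the 360 clusters with 1 edited read rest on few counts.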
